A study of Mus musculus with 12 samples.

Results

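Hox genes encode the homeodomain transcription factors that give cells an address along the body axis. The 39 mouse genes described here are those whose symbol is Hoxa, Hoxb, Hoxc or Hoxd followed by a number, and all 39 were among the 25887 genes of the deposited tables. They comprised 11 genes of the HoxA cluster, 10 of HoxB, 9 of HoxC and 9 of HoxD. The cells were dermal papilla cells sorted by flow cytometry from mouse skin, and 12 bulk RNA-seq libraries from total RNA depleted of ribosomal RNA fell into 4 groups of 3. P28 Smo* is dermal papilla of male mice at postnatal day 28 with a gain of function of Smo specific to the dermal papilla, labelled as anagen (I-III), and P28 WT is that of male wild-type mice labelled as Anagen VI. P20 Smo* and P20 WT are the same genotypes in female mice at postnatal day 20, labelled as telogen. Age, sex and hair cycle stage differed together between P28 and P20, and the stage label differed with genotype at P28, so these cannot be told apart. The driver of the Smo allele, the body site of the skin and whether each library is a separate animal are not given in the labels. The p-values below are therefore about variation among these libraries, which may be technical.

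Hox genes lie in clusters on separate chromosomes, and genes at the same place in different clusters form a paralog group that shares a number. Low-numbered groups pattern the hindbrain and neck, middle groups the trunk, and the highest groups the tail, the genital region and the ends of the limbs. Fibroblasts of adult skin keep a Hox pattern that records the site where they arose. The dermal papilla is a cluster of specialised fibroblasts at the base of the hair follicle, which signals to the epithelium in anagen, the growth phase, and is quiet in telogen, the resting phase. Smo is the membrane protein that passes on Hedgehog signals, and Gli1 and Ptch1 are standard targets of that pathway.

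Values below are normalized counts, which are reads divided by a size factor of the library, and each library held between 36323058 and 48926831 reads on genes. Gli1 averaged 4259 ± 182 in P28 Smo* and 1487 ± 93.0 in P28 WT, and 4477 ± 829.9 in P20 Smo* and 1515 ± 645 in P20 WT (SD, n = 3 each). Gli1 was thus higher in Smo* at P28 (log2 fold change 1.52, limma adjusted p = 0.000237) and at P20 (log2 fold change 1.63, limma adjusted p = 0.0449), which is the direction that the genotype labels give. Smo itself averaged 7911 ± 679 in P28 Smo* and 5762 ± 364 in P28 WT, and its difference did not pass the test there (limma adjusted p = 0.0502) or at P20 (limma adjusted p = 0.111). The third P28 Smo* library stood apart: it had 15453 genes with a read, against 17337 to 17926 in the other 11. Its 12 dermal papilla markers (Corin, Alx4, Sox2, Vcan, Rspo3, Lef1, Prom1, Crabp1, Enpp2, Sostdc1, Wif1, Alpl) also summed lower than those of the other P28 libraries. Those markers summed to 214816, 338947 and 53325 in P28 Smo*, to 408164, 463549 and 507095 in P28 WT, to 77935, 78652 and 108944 in P20 Smo* and to 54210.4, 58102 and 59368 in P20 WT. Gene calls that changed without the third P28 Smo* library are given beside the comparison.

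Reads were found in every paralog group from 1 to 11, and groups 12 and 13 had few or none. Of the 39 genes, 26 had more than 3 reads in each of the 12 libraries, and together the 39 took 75243 reads. Hoxa13, Hoxb13, Hoxc12, Hoxd12 and Hoxd13 had no read in any library, so that each lay under the 3 reads per library that a count of 0 allows. Hoxc13, which acts in the hair matrix and is needed for hair keratins, had 12 reads in all. Hoxb1, a hindbrain gene, had 8 reads in all. None of the 4 members of paralog group 13 and none of the 2 of group 12 exceeded 3 reads in every library, whereas all 4 members of group 9 did. Such limits cover counting error only.

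**Figure D1:**
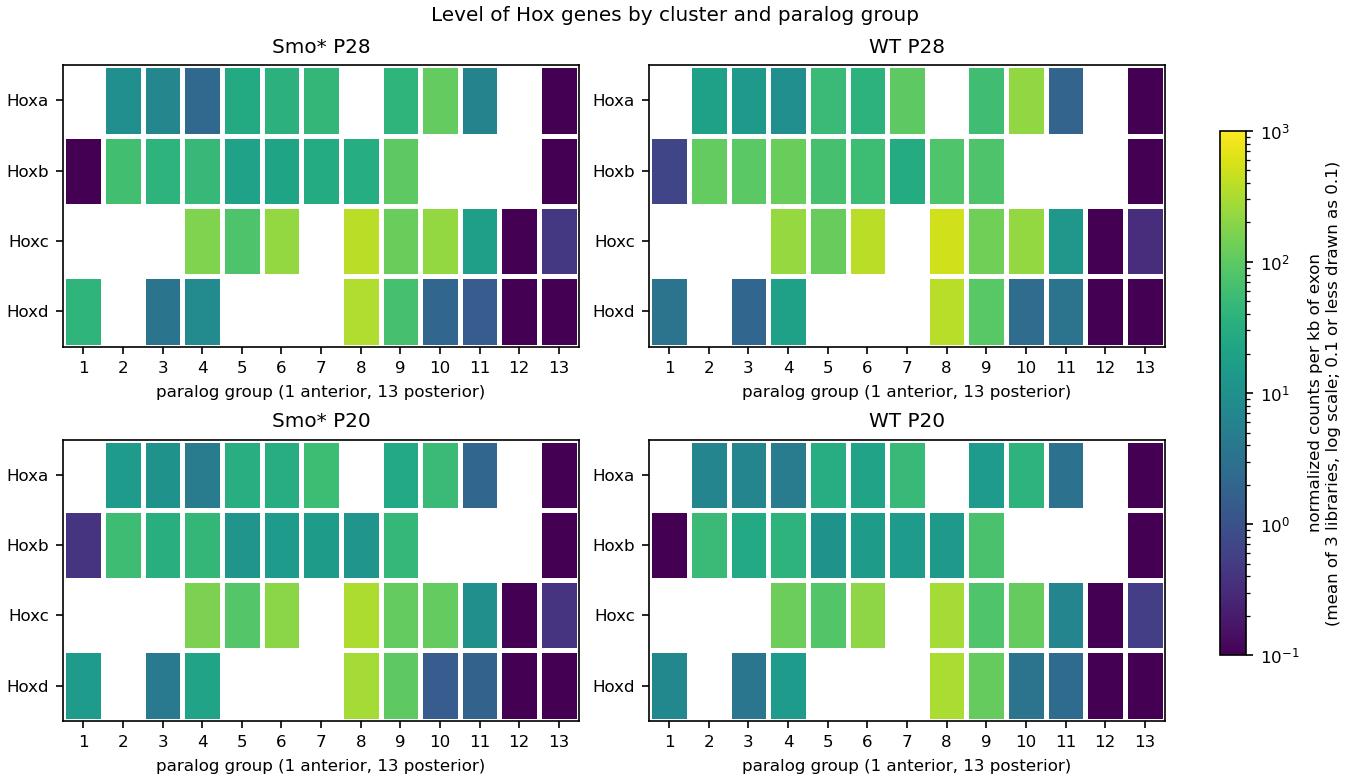
Mean normalized counts per kilobase of exon for Hox genes in the 4 groups, with clusters in rows and paralog groups in columns, on a log colour scale; blank cells mark places with no gene or with a gene that is not shown. The brightest cells are Hoxc8, Hoxd8 and Hoxc6 in every group, and paralog groups 12 and 13 hold at most traces.

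Levels between genes are compared per kilobase of exon. Over the 12 libraries Hoxc8, a gene of thoracic identity, had the highest mean level at 374 normalized counts per kilobase, followed by Hoxd8 at 328, Hoxc6 at 254, Hoxc4 at 174 and Hoxc10 at 168. Hoxc8 reached 379.8 ± 111 per kilobase in P28 Smo* and 513 ± 31.6 in P28 WT, and 318 ± 13.5 in P20 Smo* and 285 ± 48.9 in P20 WT (SD, n = 3 each). Hoxd8 reached 337 ± 23.0 per kilobase in P28 Smo* and 378 ± 20.05 in P28 WT, and 286 ± 39.5 in P20 Smo* and 311 ± 14.9 in P20 WT. In P28 Smo*, P20 Smo* and P20 WT the means of these 2 genes lay within their spread of each other, and in P28 WT Hoxc8 lay above Hoxd8 by more than the spread. By the mean over the 12 libraries, the leading members of the other clusters were Hoxa10 with 105 and Hoxa7 with 62.9 in HoxA, Hoxb9 with 74.6 and Hoxb2 with 69.5 in HoxB, and Hoxd9 with 92.9 as the second of HoxD. These leaders changed with the group. Hoxa10 and Hoxa7 averaged 110.3 ± 51.4 and 44.3 ± 9.87 per kilobase in P28 Smo*, 220.1 ± 7.995 and 102 ± 12.7 in P28 WT, 51.9 ± 15.0 and 55.7 ± 21.035 in P20 Smo*, and 38.1 ± 2.58 and 49.3 ± 5.92 in P20 WT. In HoxB the highest mean was that of Hoxb9 in P28 Smo* (103 ± 51.7), Hoxb4 in P28 WT (120.1 ± 21.3), Hoxb2 in P20 Smo* (57.1 ± 14.2) and Hoxb9 in P20 WT (71.1 ± 14.9). Hoxa10 patterns the lumbar region and the uterus, Hoxb9 the rib cage, Hoxb2 the hindbrain, and Hoxd9 the lumbar spine and hindlimb.

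Much of the order of the genes was shared between groups. Over the 39 genes, the group means had Spearman correlations between 0.948 (P28 Smo* with P28 WT) and 0.984 (P20 Smo* with P20 WT), a description in which all points share gene length and the 5 genes at 0. Single libraries of the same group correlated at 0.928 to 0.990 and libraries of different groups at 0.875 to 0.985. The 0.875 involved the third P28 Smo* library, and without that library the lowest value of any pair was 0.887.

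The HoxC cluster held about the same share of the summed Hox level per kilobase in each group, and the share of HoxD differed. HoxC took 52.7 ± 2.37% in P28 Smo*, 49.6 ± 0.914% in P28 WT, 52.3 ± 1.86% in P20 Smo* and 50.6 ± 1.61% in P20 WT (SD, n = 3 each). HoxD took 19.7 ± 1.35% in P28 Smo*, 15.4 ± 1.72% in P28 WT, 22.6 ± 0.944% in P20 Smo* and 25.6 ± 2.01% in P20 WT. HoxD made up its smallest share in P28 WT, where its libraries did not overlap those of any other group. In level rather than share, the HoxD sum was similar throughout, with 458 ± 48.1 normalized counts per kilobase in P28 Smo*, 499.7 ± 17.1 in P28 WT, 431 ± 55.7 in P20 Smo* and 456 ± 15.4 in P20 WT. Most of that sum was Hoxd8, with means of 337 in P28 Smo*, 378 in P28 WT, 286 in P20 Smo* and 311 in P20 WT. Smaller members differed in both directions: Hoxd1 averaged 40.4 in P28 Smo* and 3.30 in P28 WT, and Hoxd4 averaged 7.94 and 19.1. The level of HoxB was 349 ± 80.4 in P28 Smo*, 633 ± 103 in P28 WT, 238 ± 11.2 in P20 Smo* and 243 ± 30.7 in P20 WT, so that its P28 WT libraries lay above those of all other groups. The P28 WT libraries also lay highest in HoxA, with 293 ± 127 in P28 Smo*, 518 ± 47.4 in P28 WT, 239 ± 49.9 in P20 Smo* and 183 ± 6.40 in P20 WT. The HoxA level of the third P28 Smo* library was 162, against 303 and 415 in the other 2 of its group. In bulk samples, fewer cells of a type and less RNA per cell cannot be told apart.

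**Figure D2:**
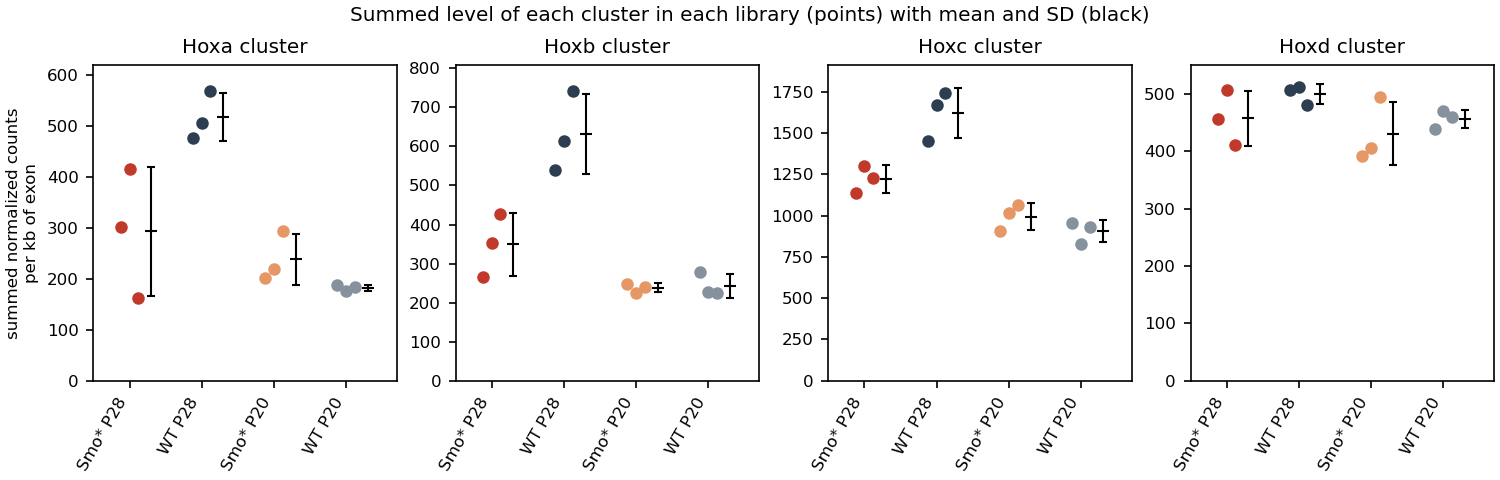
Summed normalized counts per kilobase of exon of each Hox cluster, with a point for every library and black bars for the mean and SD of each group (n = 3). The P28 WT libraries are the highest in HoxA, HoxB and HoxC, whereas in HoxD all 4 groups lie close together.

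Hox genes as a whole took more of the reads in P28 WT than in the other groups. Their reads made up 0.0134 ± 0.00242% of library reads in P28 Smo*, 0.0222 ± 0.00364% in P28 WT, 0.0131 ± 0.00164% in P20 Smo* and 0.0103 ± 0.000276% in P20 WT (SD, n = 3 each). Middle groups 4 to 8 dominated, at 62.7 ± 1.39% of the summed level per kilobase in P28 Smo*, 67.1 ± 0.907% in P28 WT, 68.3 ± 3.34% in P20 Smo* and 68.9 ± 1.80% in P20 WT. Groups 9 to 13 made up 30.0 ± 1.80% in P28 Smo*, 25.4 ± 0.683% in P28 WT, 24.0 ± 2.12% in P20 Smo* and 25.1 ± 1.98% in P20 WT. Groups 11 to 13 together made up 1.10 ± 0.239% in P28 Smo*, 0.568 ± 0.211% in P28 WT, 0.738 ± 0.0344% in P20 Smo* and 0.715 ± 0.218% in P20 WT. For both ranges of groups the 3 P28 Smo* libraries had higher shares than any of the other 9.

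In wild-type dermal papilla, 15 Hox genes rose at P28 relative to P20 and none fell. They were called at an adjusted p under 0.05 by limma on log2(normalized count + 1), adjusted over all 14790 genes tested. Of all these genes, 13.5% were called higher, 11.9% lower and 25.4% in either direction. The shares of all genes given for each comparison apply also to the counts of the gene lists below. Of the 39 Hox genes, 28 reached the mean of 10 normalized counts needed for the test, and a member that passed only through a group where it is high had to differ. The 15 comprised 3 of 8 tested genes of HoxA, 6 of 8 of HoxB, 6 of 7 of HoxC and 0 of 5 of HoxD. The median log2 fold change of the 28 was 0.89, beside -0.01 over all genes tested. The 3 values did not overlap and lay higher for 16 of the 28 and lower for 2, beside 23.6% and 21.6% of all genes tested. For genes with low counts the size of these fold changes depends on the added 1.

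Of the HoxA cluster on chromosome 6, Hoxa7, Hoxa9 and Hoxa10 rose in P28 WT over P20 WT. Hoxa10 (chromosome 6, 52231197 to 52240854, minus strand, GRCm38) had 386, 515 and 182 in P28 Smo*, 715, 696 and 748 in P28 WT, 119.8, 171 and 218 in P20 Smo*, and 122, 118 and 134 in P20 WT. Hoxa9, a gene of trunk patterning and blood cell formation, had 268, 289 and 109 in P28 Smo*, 312, 335 and 332 in P28 WT, 121, 148 and 162 in P20 Smo*, and 85.9, 71.8 and 92.5 in P20 WT. Hoxa7, a gene of thoracic vertebrae, had 94.8, 142 and 145 in P28 Smo*, 286, 262 and 334 in P28 WT, 125, 125 and 230.0 in P20 Smo*, and 122, 151 and 152 in P20 WT. All 3 P28 WT libraries lay above all other libraries for each of these genes, and the third P28 Smo* library was the lowest of its group for Hoxa10 and Hoxa9. The log2 fold change of P28 WT over P20 WT was 2.52 (SE 0.32, limma adjusted p = 0.000206) for Hoxa10, 1.96 (SE 0.31, adjusted p = 0.000829) for Hoxa9 and 1.05 (SE 0.26, adjusted p = 0.0119) for Hoxa7. Without the third P28 WT library the call of Hoxa7 was lost. An antisense gene overlaps 20.4% of the exon bases of Hoxa7, and the labels do not state if reads were counted by strand.

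The HoxB cluster on chromosome 11 held 6 of the genes that rose in P28 WT, in paralog groups 2 to 6 and 8. Promoter bases are printed for Hoxb4 and Hoxb8, 2 of these 6 genes, and for Hoxd1, which rose in Smo* at P28. Each line shows the 250 bases before the start of the gene, taken from RefSeq on build GRCm38.p6, plus strand, with capitals at matches to the searched motifs.
Hoxb4, chr11:96318017-96318266: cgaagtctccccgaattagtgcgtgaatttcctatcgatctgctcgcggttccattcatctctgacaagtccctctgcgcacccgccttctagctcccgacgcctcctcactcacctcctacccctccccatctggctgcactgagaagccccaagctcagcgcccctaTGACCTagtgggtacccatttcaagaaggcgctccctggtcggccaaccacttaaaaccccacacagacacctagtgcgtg
Hoxb8, chr11:96281655-96281904: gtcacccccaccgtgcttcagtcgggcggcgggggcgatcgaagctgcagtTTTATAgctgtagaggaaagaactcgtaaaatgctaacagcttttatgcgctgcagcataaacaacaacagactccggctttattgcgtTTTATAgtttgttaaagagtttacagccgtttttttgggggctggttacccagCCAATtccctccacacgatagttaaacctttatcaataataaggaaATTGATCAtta
Hoxd1, chr2:74762730-74762979: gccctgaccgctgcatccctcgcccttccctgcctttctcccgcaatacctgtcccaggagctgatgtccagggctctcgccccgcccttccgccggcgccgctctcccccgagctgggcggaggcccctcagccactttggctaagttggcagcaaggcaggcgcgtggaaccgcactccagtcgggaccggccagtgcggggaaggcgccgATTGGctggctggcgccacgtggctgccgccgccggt
The motifs were read on both strands. They were the TATA box (TATAAA), the CCAAT box, the Gli site GACCACCCA, the Hox and Pbx site TGATNNAT and the retinoic acid half-site AGGTCA. Hoxb4 held a half-site on the minus strand at 81 to 76 bases before the start, and Hoxd1 a CCAAT box on the minus strand at 37 to 33 bases. Hoxb8 held TATA boxes on the minus strand at 199 to 194 and 110 to 105 bases, a CCAAT box on the plus strand at 57 to 53 bases and a Hox and Pbx site on the minus strand at 11 to 4 bases. Windows were found for 22 of the 39 members, in 24 windows, and a match describes letters and is no measured binding site. The CCAAT box was in 14 of the 24 windows and in 33.8% of the 32851 windows of all genes. The TATA box was in 4 and in 12.4%, the Hox and Pbx site in 4 and in 7.68%, the half-site in 6 and in 14.0%, and the Gli site in 0 and in 0.225%. No 2 of these motifs share letters in the printed windows.

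Hoxb5 (chromosome 11, 96303336 to 96306121, plus strand, GRCm38), which acts in lung and gut nerve development, had 39.7, 64.5 and 66.3 in P28 Smo*, 141, 197 and 219 in P28 WT, 24.8, 42.7 and 33.8 in P20 Smo*, and 24.9, 30.2 and 35.7 in P20 WT. Hoxb8, known for its part in grooming behaviour in mice, had 86.0, 135 and 20.3 in P28 Smo*, 185, 223 and 226 in P28 WT, 35.1, 17.4 and 44.7 in P20 Smo*, and 45.2, 27.1 and 44.3 in P20 WT. Hoxb3 (chromosome 11, 96323326 to 96347930, plus strand, GRCm38), a gene of the hindbrain and neck, had 149.9, 199 and 137 in P28 Smo*, 335, 425 and 445 in P28 WT, 127, 155 and 151 in P20 Smo*, and 135, 93.7 and 104 in P20 WT. For these 3 genes the P28 WT libraries again lay above all 9 others. Their log2 fold changes of P28 WT over P20 WT were 2.57 (SE 0.32, limma adjusted p = 0.000194) for Hoxb5, 2.44 (SE 0.57, adjusted p = 0.00849) for Hoxb8 and 1.86 (SE 0.21, adjusted p = 9.52e-05) for Hoxb3. Antisense genes overlap 52.9% of the exon bases of Hoxb3, 27.3% of those of Hoxb2 and 3.6% of those of Hoxb5, so part of their reads may come from the other strand.

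Hoxb4 (chromosome 11, 96318267 to 96321638, plus strand, GRCm38), a gene of neck vertebrae and blood stem cells, had 110.2, 121 and 133 in P28 Smo*, 247, 323 and 354 in P28 WT, 108, 119 and 112 in P20 Smo*, and 112, 106 and 80.0 in P20 WT. Hoxb6, expressed in trunk and limb-bud mesoderm, had 27.5, 35.1 and 65.2 in P28 Smo*, 92.2, 103 and 133 in P28 WT, 42.3, 19.2 and 27.4 in P20 Smo*, and 35.0, 31.2 and 25.1 in P20 WT. Hoxb2 had 130.0, 228 and 276 in P28 Smo*, 378, 322 and 445 in P28 WT, 143, 219.5 and 235 in P20 Smo*, and 181, 154 and 197 in P20 WT. P28 WT libraries were the highest in each case. P28 WT exceeded P20 WT by a log2 fold change of 1.62 (SE 0.20, limma adjusted p = 0.000201) for Hoxb4, 1.81 (SE 0.39, adjusted p = 0.00542) for Hoxb6 and 1.10 (SE 0.28, adjusted p = 0.0127) for Hoxb2. The call of Hoxb2 was lost without the second P20 WT library and without the third P28 WT library. Hoxb9, the highest of the cluster per kilobase over the 12 libraries, had 184, 192 and 418 in P28 Smo*, 175, 152 and 273 in P28 WT, 170.4, 88.0 and 102 in P20 Smo*, and 224, 178 and 147 in P20 WT. Its P28 WT and P20 WT libraries overlapped, with a log2 fold change of 0.10 (SE 0.35, limma adjusted p = 0.867). Hoxb7 lay between 17.3 and 56.7 normalized counts over the 12 libraries and was called in no comparison.

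**Figure D3:**
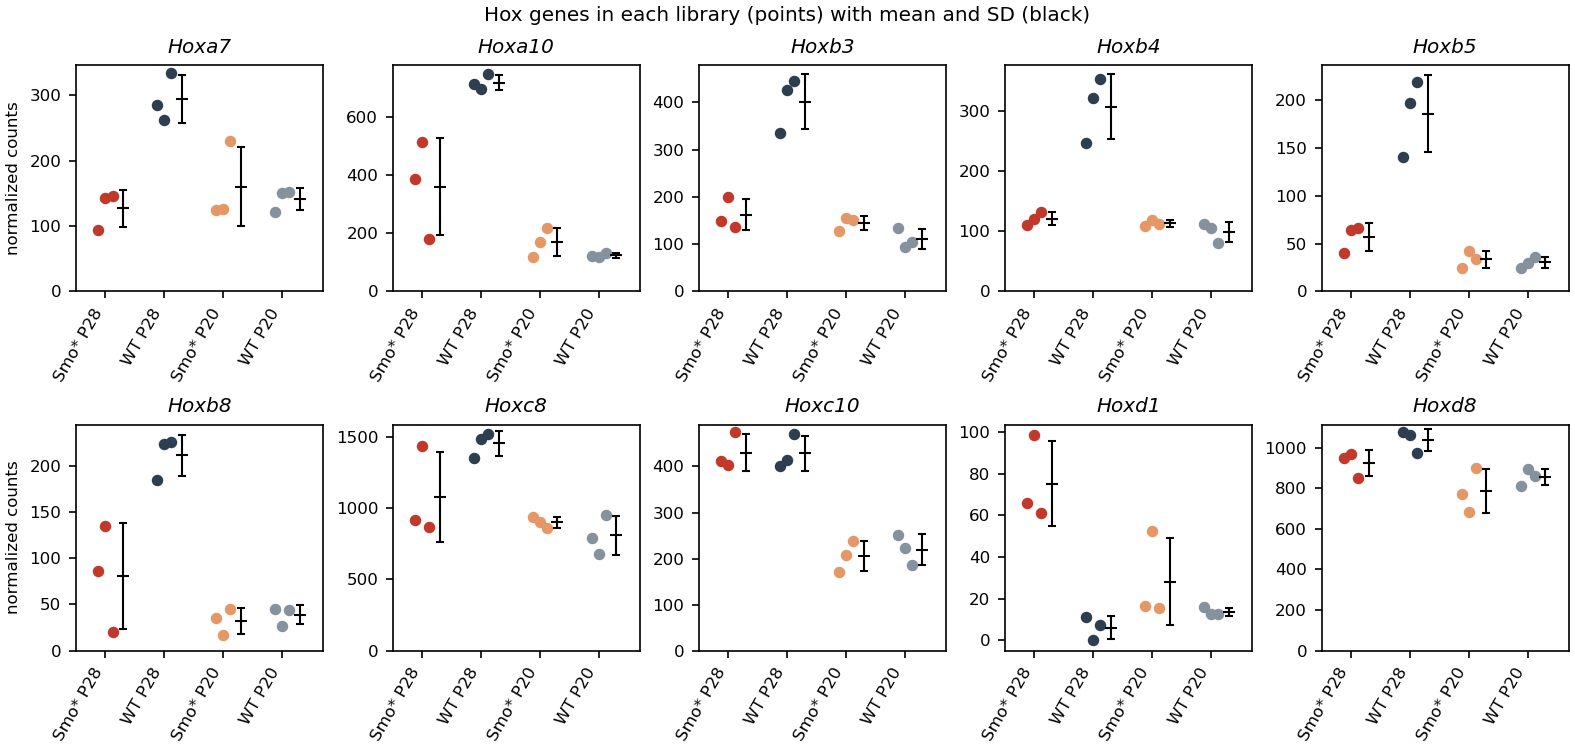
Normalized counts of 10 Hox genes, with a point for every library and black bars for the mean and SD of each group (n = 3). In Hoxa7, Hoxa10, Hoxb3, Hoxb4, Hoxb5 and Hoxb8 the 3 P28 WT points lie above all others, in Hoxc10 both P28 groups lie above both P20 groups, and in Hoxd1 the P28 Smo* points are the highest.

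Of the HoxC cluster on chromosome 15, 6 of the 7 tested genes rose in P28 WT, with log2 fold changes below those of the 6 HoxB genes. Hoxc8 (chromosome 15, 102990607 to 102994111, plus strand, GRCm38) had 919, 1438 and 869.6 in P28 Smo*, 1353, 1485 and 1523 in P28 WT, 937, 906 and 861 in P20 Smo*, and 790.2, 679.5 and 955 in P20 WT. Hoxc6, a gene of the upper trunk, had 533, 448 and 671 in P28 Smo*, 743, 985 and 1008 in P28 WT, 442, 438 and 552 in P20 Smo*, and 501, 461 and 557 in P20 WT. Hoxc10, which acts at lumbar and hindlimb level, had 411, 404 and 476 in P28 Smo*, 400.3, 415 and 471 in P28 WT, 171, 207 and 238 in P20 Smo*, and 251, 223 and 185 in P20 WT. The 3 P28 WT libraries of Hoxc6 lay above all others, and those of Hoxc8 overlapped P28 Smo*. In Hoxc10 both P28 groups lay above both P20 groups. The log2 fold change of P28 WT over P20 WT was 0.86 (SE 0.18, limma adjusted p = 0.00465) for Hoxc8, 0.84 (SE 0.18, adjusted p = 0.00472) for Hoxc6 and 0.97 (SE 0.17, adjusted p = 0.00167) for Hoxc10.

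Hoxc4, a gene of the neck and shoulder level, had 475, 470.4 and 367 in P28 Smo*, 567, 570.1 and 684 in P28 WT, 347, 446 and 463 in P20 Smo*, and 424, 265 and 288 in P20 WT. Hoxc5, the next gene of the cluster, had 202, 214 and 293 in P28 Smo*, 342, 420.5 and 342 in P28 WT, 249.9, 289 and 257 in P20 Smo*, and 278, 256 and 214 in P20 WT. Hoxc9, which marks thoracic motor neurons, had 248, 301 and 353 in P28 Smo*, 288, 371 and 343 in P28 WT, 186, 305 and 312 in P20 Smo*, and 187, 206 and 188 in P20 WT. P28 WT lay above P20 WT without overlap in these 3 genes, and for Hoxc9 the P28 WT and P28 Smo* libraries overlapped. The log2 fold change of P28 WT over P20 WT was 0.92 (SE 0.20, limma adjusted p = 0.00499) for Hoxc4, 0.56 (SE 0.18, adjusted p = 0.0388) for Hoxc5 and 0.78 (SE 0.21, adjusted p = 0.0194) for Hoxc9. The call of Hoxc5 was lost in 7 of 16 alternative settings and that of Hoxc9 in 4 of 16. Hoxc5 and Hoxc10 share 5.4% and 8.7% of their exon bases with each other on the same strand, where reads may be left out or split. Hoxc11, the seventh, lay between 6.75 and 44.2 and was called in no comparison.

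The HoxD cluster on chromosome 2 had no called gene in this comparison. Hoxd8, a trunk gene, had 951, 968 and 851 in P28 Smo*, 1078, 1061 and 975 in P28 WT, 774, 682 and 898 in P20 Smo*, and 812, 893 and 859 in P20 WT. Hoxd9 had 120.1, 175 and 126 in P28 Smo*, 185, 204 and 194 in P28 WT, 152, 217 and 282 in P20 Smo*, and 232, 257 and 237 in P20 WT. Hoxd8 lay higher in P28 WT than in P20 WT without overlap and Hoxd9 lower without overlap, and neither passed the test (limma adjusted p = 0.107 for Hoxd8 and 0.350 for Hoxd9). Hoxd1 (chromosome 2, 74762980 to 74765142, plus strand, GRCm38), a gene of sensory neuron patterning in mice, had 66.1, 98.6 and 61.0 in P28 Smo*, 11.1, 0 and 7.37 in P28 WT, 16.5, 52.3 and 15.5 in P20 Smo*, and 15.8, 12.5 and 12.5 in P20 WT. Its P28 WT libraries lay below those of P20 WT, with a log2 fold change of -1.64 (SE 0.81, limma adjusted p = 0.161). Hoxd3 ranged from 4.27 to 27 and Hoxd4 from 15.0 to 64.8 normalized counts, and 62.3% of the exon bases of Hoxd3 and 52.3% of those of Hoxd4 are shared with another gene on the same strand.

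The other HoxA genes given here were low. Hoxa5, a gene of the lung and the neck-to-trunk boundary, ranged from 23.5 to 119.7 normalized counts over the 12 libraries. Hoxa3, Hoxa2 and Hoxa6 had means of 58.2, 22.6 and 27.2, and none of these 4 genes was called in any comparison. Hoxa4, Hoxa11, Hoxd10 and Hoxd11 averaged 8.23, 7.65, 4.25 and 9.39 over the 12 libraries, under the minimum of 10 except for Hoxd11 among the P28 libraries. The third P28 Smo* library had 0 reads for Hoxa3, Hoxa4, Hoxd10 and Hoxd11, each of which had reads in the other 2 libraries of that group.

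**Figure D4:**
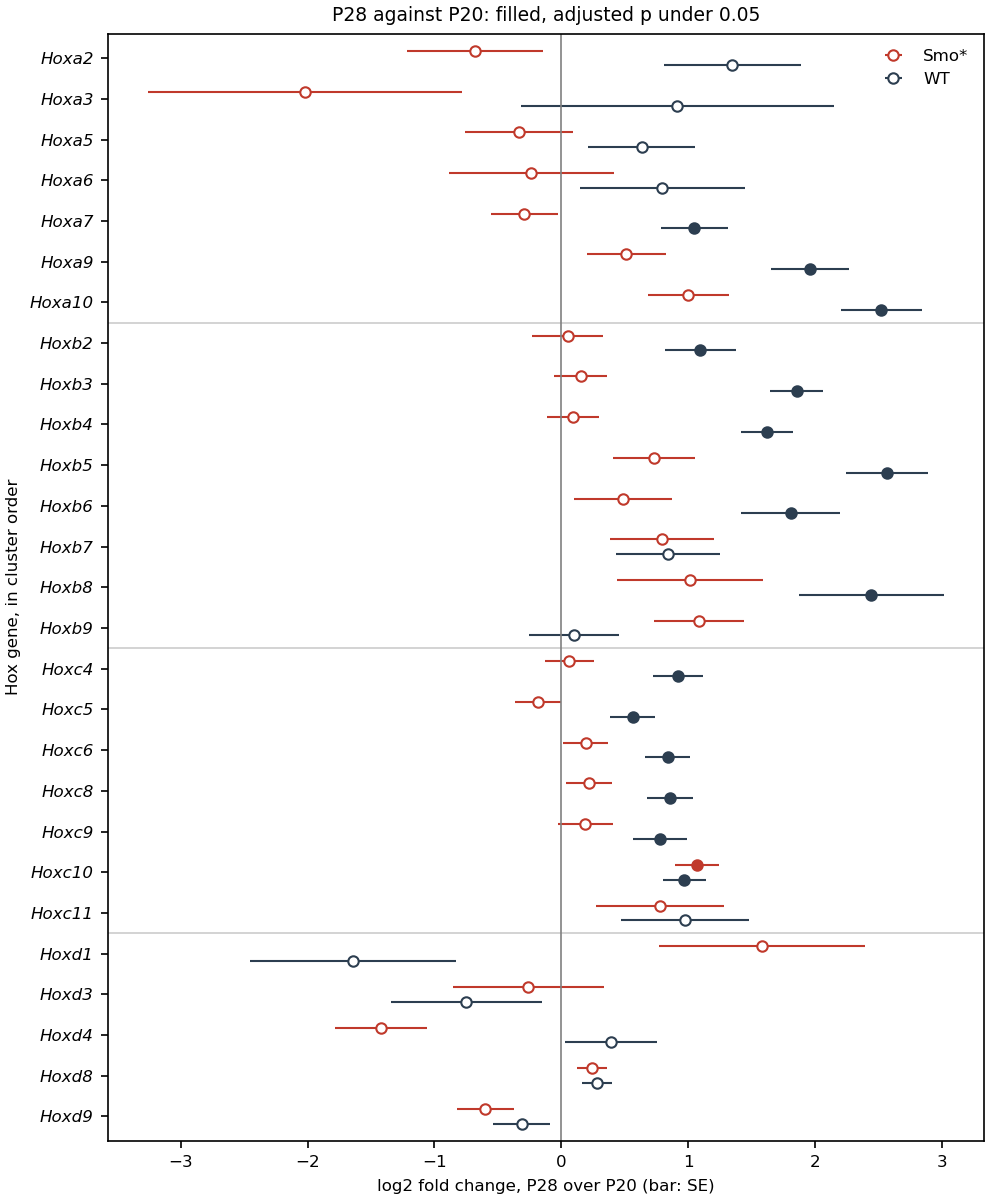
Log2 fold change of P28 over P20 for tested Hox genes in Smo* and in WT, with bars of 1 SE and filled points for an adjusted p under 0.05 by limma. In WT 15 genes of HoxA, HoxB and HoxC are filled and lie right of 0, and in Smo* Hoxc10 is the filled point.

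The same comparison in Smo* dermal papilla called a single Hox gene of 28 tested: Hoxc10 was higher at P28 than at P20 (log2 fold change 1.07, SE 0.17, limma adjusted p = 0.0124). No Hox gene was called lower. Of all genes tested, 1.98% were called higher, 1.47% lower and 3.46% in either direction. The median log2 fold change of the 28 was 0.17. The groups did not overlap for 4 genes that lay higher in P28 Smo* and for 2 that lay lower, beside 12.2% and 12.1% of all genes tested. The 4 were Hoxb9, Hoxc10, Hoxc11 and Hoxd1, and the 2 were Hoxa2 and Hoxd4. Hoxa10 in P28 Smo* ranged from 182 to 515, the widest group for that gene, and its log2 fold change over P20 Smo* was 1.001 (SE 0.32, limma adjusted p = 0.0953). Without the third P28 Smo* library, 4 genes were called higher by limma, namely Hoxa9, Hoxa10, Hoxb8 and Hoxc10. The call of Hoxc10 was lost when only the 6 Smo* libraries were fitted.

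At P28, Smo* dermal papilla had lower levels of 4 Hox genes than WT and a higher level of 1. By limma adjusted over 14757 genes, Hoxa7, Hoxb3, Hoxb4 and Hoxb5 fell and Hoxd1 rose, of 29 Hox genes tested, whereas 4.85% of all genes were called lower, 4.05% higher and 8.90% in either direction. The median log2 fold change of the 29 was -0.67, beside -0.01 over all genes. The 3 values did not overlap and lay lower in Smo* for 15 of the 29 and higher for 1, beside 17.8% and 15.6% of all genes tested. The P28 WT libraries enter this comparison and that with P20 WT, so the 2 share their values.

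Hoxb5 fell to a mean of 56.8 ± 14.9 in P28 Smo*, against 186 ± 40.4 in P28 WT (log2 fold change -1.70, SE 0.31, limma adjusted p = 0.0152). Hoxb4 averaged 121 ± 11.2 in P28 Smo* and 308 ± 54.6 in P28 WT (log2 fold change -1.32, SE 0.21, limma adjusted p = 0.00925). Hoxb3 averaged 162 ± 32.8 in P28 Smo* and 402 ± 58.3 in P28 WT (log2 fold change -1.31, SE 0.21, limma adjusted p = 0.00984). These are 3 adjacent genes of the HoxB cluster, and none of the 3 Smo* libraries reached the lowest WT library. Hoxa7 averaged 127 ± 28.4 in P28 Smo* and 294 ± 36.6 in P28 WT (log2 fold change -1.22, SE 0.24, limma adjusted p = 0.0184). Hoxa10 lay lower in every Smo* library, at 386, 515 and 182 in P28 Smo* against 715, 696 and 748 in P28 WT, and missed the threshold (log2 fold change -1.12, limma adjusted p = 0.0843). Hoxc10 did not separate the genotypes, with a log2 fold change of 0.005 (SE 0.15, limma adjusted p = 0.987).

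Hoxd1 averaged 75.2 ± 20.4 in P28 Smo* and 6.15 ± 5.65 in P28 WT, where 1 library had no read of it. Its log2 fold change was 4.0 (SE 0.94, limma adjusted p = 0.0369). The call was lost in 5 of 16 alternative settings: with a pseudocount of 0.5 (limma adjusted p = 0.0567), without the mean-variance trend (0.0793), and without the first P28 Smo* (0.0952), the second P28 Smo* (0.0989) or the third P28 WT library (0.0783). The log2 fold change was 4.37 with a pseudocount of 0.5 and 2.98 with a pseudocount of 5, and it was 2.34 in the authors' deposited table (adjusted p = 1.97e-06 there). The noncoding RNA Haglr, which lies between Hoxd1 and Hoxd3, had 48.5, 81.6 and 74.9 in P28 Smo*, 12.8, 33.3 and 17.5 in P28 WT, 21.7, 20.9 and 17.3 in P20 Smo*, and 32.8, 26.0 and 25.1 in P20 WT. Haglr lay higher in every P28 Smo* library than in any other library. It passed the test for P28 Smo* over P20 Smo* (log2 fold change 1.70, limma adjusted p = 0.0429) and not for P28 Smo* over P28 WT (log2 fold change 1.72, limma adjusted p = 0.0632). Its P28 difference between genotypes minus its P20 difference also passed the test, at 2.18 in log2 units. Haglr was called in none of these comparisons without the third P28 Smo* library.

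Single libraries decided how many Hox genes were called between genotypes at P28. Without the third P28 WT library limma called 0 of them, without the second P28 WT library 1 (Hoxd1), and without the third P28 Smo* library 10. Those 10 were the 5 named above with Hoxa10, Hoxb2, Hoxb6, Hoxc5 and Hoxc6, the last 5 all lower in Smo*. The authors' deposited table called 12 of the 39 at P28, 11 lower and 1 higher in Smo*. Dermal papilla markers moved with the genotype at P28: Corin, Lef1, Crabp1 and Alx4 fell in Smo*, 4 of 12 tested, and their part in the Hox difference was not tested. Of the 12, 7 fell and 2 rose without the third P28 Smo* library.

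**Figure D5:**
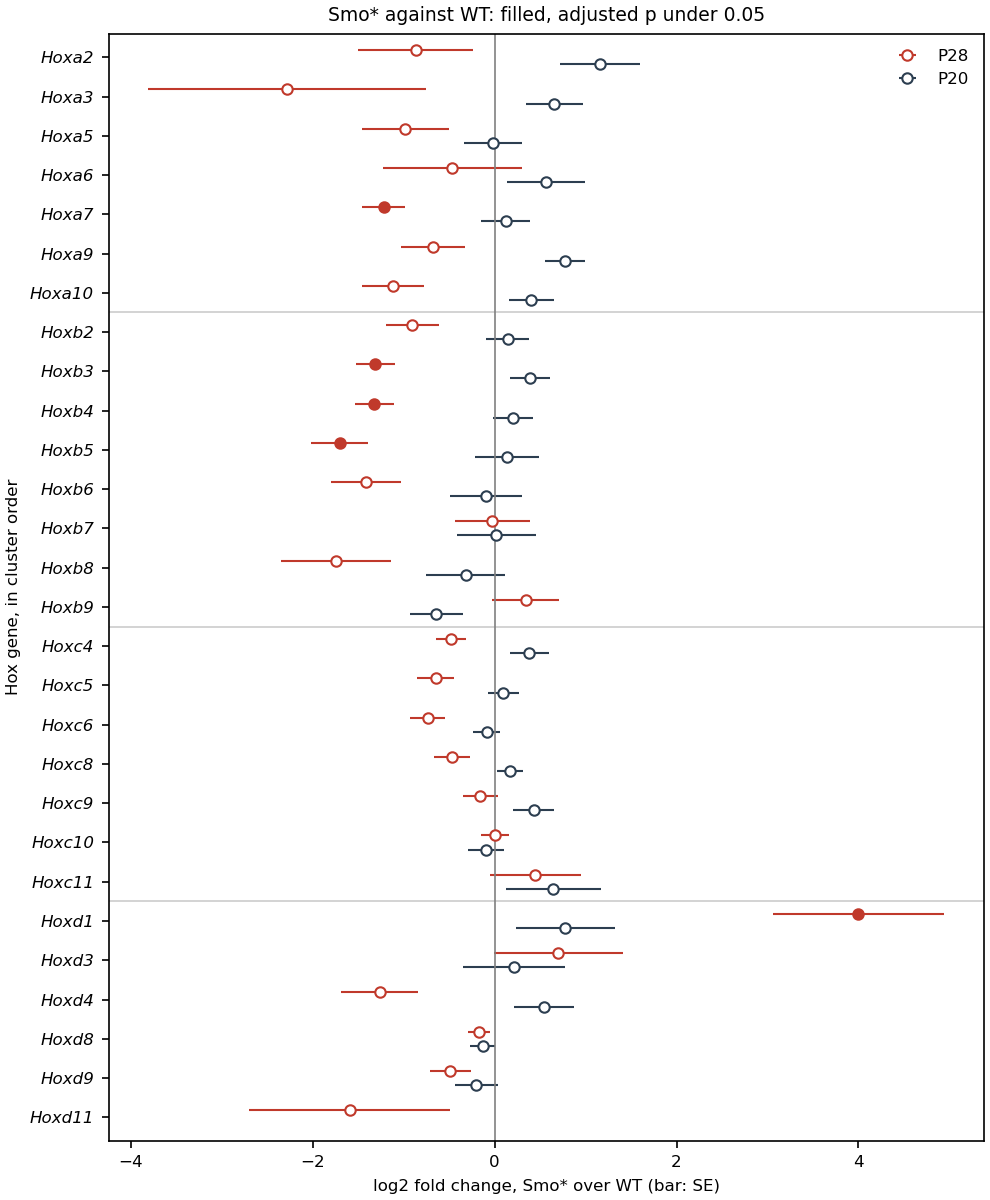
Log2 fold change of Smo* over WT for tested Hox genes at P28 and P20, with bars of 1 SE and filled points for an adjusted p under 0.05 by limma. At P28 Hoxa7, Hoxb3, Hoxb4 and Hoxb5 are filled left of 0 and Hoxd1 right of 0, and at P20 no point is filled.

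At P20, no Hox gene of 28 tested was called between Smo* and WT by limma, edgeR or DESeq2, and 0 were called in the authors' deposited table. Over all genes limma called 0.696%, with 0.485% higher and 0.212% lower. At an unadjusted p under 0.05, 2 of the 28 passed (Hoxa2 and Hoxa9), beside 11.4% of all genes. The median log2 fold change was 0.19 and the range of the 28 was -0.64 to 1.16. Hoxa2, Hoxa3, Hoxa9 and Hoxd4 lay higher in every Smo* library than in any WT library, and none lay lower without overlap, beside 8.04% and 8.34% of all genes. Of these 4, Hoxa9 had the lowest p, with 121, 148 and 162 in P20 Smo* against 85.9, 71.8 and 92.5 in P20 WT (log2 fold change 0.77, SE 0.22, limma adjusted p = 0.226). Missing the threshold does not show that the genotypes had equal levels.

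The difference between genotypes was itself compared between ages in a fit over the 12 libraries. Hoxb3, Hoxb4 and Hoxb5 had a P28 difference below their P20 difference, 3 of 28 tested, beside 2.83% of all genes called lower, 1.89% higher and 4.72% in either direction. The P28 difference minus the P20 difference was -1.70 for Hoxb3 (SE 0.30, limma adjusted p = 0.00873), -1.53 for Hoxb4 (SE 0.29, adjusted p = 0.0132) and -1.84 for Hoxb5 (SE 0.45, adjusted p = 0.0406), in log2 units. For Hoxd1 it was 3.22 (SE 1.15) and did not pass the test (limma adjusted p = 0.128). The call of Hoxb5 was lost in 10 of 21 alternative settings, whereas those of Hoxb3 and Hoxb4 were kept in all 21. Without the third P28 Smo* library 5 genes were called, with Hoxa9 and Hoxc5 added, and without the second P28 Smo* library 6, with Hoxa9, Hoxa10 and Hoxc8 added.

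Hox proteins bind DNA together with TALE homeodomain cofactors of the Pbx, Meis and Pknox families, 8 of 9 of which were tested. Meis2, Meis1 and Pbx2 rose in P28 WT over P20 WT, and Pknox1 fell. Meis2 had 1045, 1075 and 661 in P28 Smo*, 1552, 2128 and 1977 in P28 WT, 1089.6, 787 and 978 in P20 Smo*, and 1015, 875 and 911 in P20 WT, with a log2 fold change of 1.003 in WT (limma adjusted p = 0.00297). The log2 fold change of Pknox1 was -0.42. In Smo* against WT at P28, Meis2, Meis1 and Pbx2 fell, 3 of 8, with log2 fold changes of -1.04, -0.74 and -0.49 (limma adjusted p = 0.0224, 0.0231 and 0.0435). The median of the 8 was -0.53. The P28 difference minus the P20 difference of these 3 also passed the test, at -1.06, -0.96 and -0.66, and no cofactor was called at P20. These 3 also fell in Smo* at P28 without the third P28 Smo* library, where the difference of differences kept the call of Pbx2 and lost those of Meis1 and Meis2.

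Genes of the chromatin complexes that hold Hox clusters silent or active were mostly not called. Of 26 Polycomb genes, 1 rose in Smo* at P28: Ezh2, the methyltransferase that places the repressive mark H3K27me3 (log2 fold change 0.75, limma adjusted p = 0.0419). In P28 WT over P20 WT 1 Polycomb gene rose and 3 fell, among them Ezh2 (log2 fold change -1.30, limma adjusted p = 0.00104), and in Smo* 0 rose and 1 fell. Of 13 genes of the Trithorax group and the H3K27 demethylases, Kdm6b rose in Smo* at P28 (log2 fold change 0.77, limma adjusted p = 0.0334). In that list 3 fell in P28 WT over P20 WT and 1 in P28 Smo* over P20 Smo*. Beside these counts, 13.5% of all genes tested were called higher and 11.9% lower in P28 WT over P20 WT. Neither list had a call at P20 or in the comparison of the differences. Leaving out the third P28 Smo* library added Phf19 to the Polycomb genes that rose in Smo* at P28, and 2 of the 13 genes then fell in P28 Smo* over P20 Smo*.

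Genes that flank the Hox clusters, 15 tested of 20 found, gave 4 that rose in P28 WT over P20 WT and 1 that fell in Smo* at P28. That gene was Snx11, a sorting nexin beside the HoxB cluster, with 332, 398 and 382 in P28 Smo*, 727, 994 and 1014 in P28 WT, 274, 389 and 435 in P20 Smo*, and 283, 299.7 and 385 in P20 WT. Its log2 fold change was 1.49 for P28 WT over P20 WT (limma adjusted p = 0.000310), -1.28 for Smo* over WT at P28 (limma adjusted p = 0.00409) and -1.45 for the difference of differences (limma adjusted p = 0.0157). P28 WT was again the group that lay apart, and Snx11 was also called in Smo* at P28 and in the difference of differences without the third P28 Smo* library. Of the noncoding RNAs of the clusters, 3 of 17 were found and only Haglr was tested. Of the 6 ParaHox genes, which are relatives of the Hox genes, 0 reached the minimum.

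Retinoic acid is a classical inducer of Hox genes, and 14 of 16 of its receptors and enzymes were tested. In Smo* against WT at P28, Rarb and Crabp1 fell (log2 fold change -0.87 and -2.58) and Cyp26b1, which breaks retinoic acid down, rose (log2 fold change 0.98, limma adjusted p = 0.0249). In P28 WT over P20 WT 5 rose and 1 fell, and the one that fell was Cyp26b1 (log2 fold change -1.45). The call of Rarb at P28 was lost without the third P28 Smo* library and Rarg fell, and 3 genes rose in P28 Smo* over P20 Smo*, where none was called with it. Crabp1 is also in the list of dermal papilla markers.

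Other homeobox and T-box genes of position in skin mesenchyme moved in both directions. Of 30 tested at P28, Irx3, Twist1 and Meox2 rose in Smo* and Tbx5 and Zic1 fell. Zic1, a marker of dorsal dermis, had 1339, 2256 and 1307 in P28 Smo*, 5313, 5779 and 7228 in P28 WT, 1439, 1968 and 1894 in P20 Smo*, and 1274, 1148 and 1564 in P20 WT. Zic1 had a log2 fold change of -1.94 for Smo* over WT at P28 (limma adjusted p = 0.00212) and 2.20 for P28 WT over P20 WT (limma adjusted p = 2.98e-05). Tbx5, the forelimb gene, had a log2 fold change of -1.11 for Smo* over WT at P28 and 1.76 for P28 WT over P20 WT. Of 29 tested, 7 rose and 5 fell in P28 WT over P20 WT, beside 13.5% and 11.9% of all genes tested. Of the same 29, 2 rose in P28 Smo* over P20 Smo*, and 1 rose and 1 fell in the difference of differences. The call of Irx3 in Smo* at P28 was lost without the third P28 Smo* library, and 4 genes then rose in P28 Smo* over P20 Smo*.

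Markers of the sorted cells and of their neighbours moved with the same comparisons. In P28 WT over P20 WT, 9 of 12 dermal papilla markers rose and none fell, Corin by a log2 fold change of 7.11 (limma adjusted p = 1.28e-05). In P28 Smo* over P20 Smo* 1 of 12 rose, and 7 of 12 without the third P28 Smo* library. In the difference of differences 4 of 12 fell, and 3 of 12 without it. At P20 Alx4 rose in Smo*. Of 10 dermal fibroblast markers 2 fell in P28 WT over P20 WT, 1 rose in P28 Smo* over P20 Smo*, 1 rose in Smo* at P28 and 1 fell in Smo* at P20. Of 6 endothelial markers, 1 rose in P28 Smo* over P20 Smo* and 1 in the difference of differences. Pecam1 and Cdh5 rose in Smo* at P28, and the 6 summed to 5254, 3193 and 5369 in P28 Smo* and 3137, 1873 and 1553 in P28 WT. Of 9 basal and outer root sheath keratinocyte markers, 1 rose and 1 fell in P28 WT over P20 WT and Itga6 rose in the difference of differences. Itga6 and Itgb4 rose in Smo* at P28, and the 9 summed to 5335, 3264 and 4774 in P28 Smo* and 1837, 1632 and 1274 in P28 WT. Itga6 and Itgb4 dominate these sums, averaging 1840 and 2438 in P28 Smo* and 720 and 375 in P28 WT. The median log2 fold change of the 9 was -1.04. Krt5, Krt14, Krt15, Krt17, Cdh1 and Trp63 had lower means in P28 Smo* than in P28 WT, and Epcam a higher one. None of these was called there with all libraries.

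The dermal sheath and smooth muscle list had 7 tested genes, of which Cnn1 rose and Itga8 fell in Smo* at P28, and 4 rose in P28 WT over P20 WT, 2 in P28 Smo* over P20 Smo*, and Itga8 fell in the difference of differences. Hair matrix and shaft markers had 1 that fell in Smo* at P28 and 1 each way in P28 WT over P20 WT, with Krt27, Krt31 and Krt34 at 0 in P28 Smo*, Krt31, Krt34 and Foxn1 at 0 in P20 Smo* and Krt31 and Krt34 at 0 in P20 WT. With all libraries, melanocyte, immune and skeletal muscle markers had no call in any of the 5 comparisons. Leaving out the third P28 Smo* library ended the calls of Dlk1, a fibroblast marker, in Smo* at P28 and of Emcn in the difference of differences, and Trp63 and Foxn1 then fell in Smo* at P28. In P28 Smo* over P20 Smo*, Mfap5 was then no longer called, Dlk1 fell and Pmel, a melanocyte gene, rose. The part of these cell types in the Hox values was not tested.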

How the data were processed

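FACS-sorted dermal papilla cells gave total RNA, which was depleted of ribosomal RNA and made into libraries with a kit that marks the strand, per the labels' protocols. Per the submitters' processing notes, the tools were Trimmomatic, TopHat2 (version 2), HTSeq and also DESeq2, with GRCm38.p4 and mm10 listed as builds and no step assigned to any of them. The authors deposited a table for each age, with normalized counts (signal: reads divided by a size factor per library) of 25887 genes in 6 libraries. All values were whole multiples of the step of their library within 0.01 reads, and the authors' deposited mean equalled the mean of the 12 libraries in both tables, so the tables were taken as normalized together. The authors also deposited a log2 fold change (WT over Smo*, its sign turned here), its standard error, a test statistic (score), and p-values with adjusted p-values.

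Here log2(normalized count + 1) of genes with a mean of at least 10 was tested with limma 3.58.1 in R 4.3.3 (limma-trend), with Benjamini-Hochberg adjustment over all genes tested and a threshold of 0.05. The 2 genotype comparisons used the 6 libraries of that age, and the 2 age comparisons and the difference of differences used all 12. Alternatives were other scalings, filters and pseudocounts, edgeR 4.0.16 and DESeq2 1.42.0 on the recovered reads, other fits and leaving out each library. Code was tested on simulated data. Exon lengths and overlaps came from GENCODE M21 (GRCm38), matched by gene identifier. Full values are given for members called in any comparison and for the 2 highest per cluster per kilobase, and other genes are named where called between genotypes, up to 4 per list, as examples of an age comparison, or as a check. The members and the 17 gene lists were chosen with earlier results of these data known. Counts over members and lists cover all their genes, but some genes are not reported here by name. A total of 36323058 to 48926831 reads per library sets the counting precision.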

Additional observations from a re-analysis of the deposited data

Results flagged for a closer look

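Hoxb3, Hoxb4 and Hoxb5 were singled out because the difference between Smo* and WT at P28 was not the same as that at P20, by a test of the difference itself in limma over the 12 libraries. The P28 difference minus the P20 difference was -1.70 in log2 units for Hoxb3, -1.53 for Hoxb4 and -1.84 for Hoxb5. The log2 fold change of Smo* over WT in each age's own fit was -1.31 at P28 and 0.39 at P20 for Hoxb3, -1.32 at P28 and 0.20 at P20 for Hoxb4, and -1.70 at P28 and 0.14 at P20 for Hoxb5. At P20 none of these 3 genes was called, and their Smo* and WT libraries overlapped. Age, sex and hair cycle stage differ together between the ages, and dermal papilla markers summed to 53325 in the third P28 Smo* library, against 54210.4 to 59368 in P20 WT.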

How the results depend on the processing

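No paired analysis was possible because the numbers in the labels are unique to each library and shared by no 2 groups. Over 24 gene calls and 403 gene and setting pairs no direction reversed, 39 calls were lost, and 13 of the 24 were kept in every setting run. The 15 calls of P28 over P20 in WT ranged from 11 to 15 when single libraries were left out. The 5 calls of Smo* over WT at P28 ranged from 0 (without the third P28 WT library) to 10 (without the third P28 Smo* library), and became 9 with DESeq2, 11 with all 12 libraries in the fit and 12 with the authors' deposited adjusted p-values. The 1 call of P28 over P20 in Smo* ranged from 1 to 4 without single libraries, and became 2 with quantile normalization, 2 with a pseudocount of 5, 4 with DESeq2 and 0 with only the 6 Smo* libraries. The 3 calls of the difference of differences ranged from 2 to 6 without single libraries and became 7 with DESeq2. At P20 the count of 0 calls held in all alternatives run. Fewer libraries and fewer residual degrees of freedom are part of how the leave-out fits are made, and otherwise the cause was not tested. The reads found for Hoxd10 and Hoxa4 were few, at most 9 and 19 in any library, which limits the precision of their values. Calls of the other gene lists without the third P28 Smo* library were counted as an alternative chosen after seeing the data.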
